A study of Mus musculus with 8 samples.

Results

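The genes described here are 10 genes of DNA replication licensing and S-phase entry: the helicase subunits Mcm2, Mcm3, Mcm4, Mcm5, Mcm6 and Mcm7, the helicase loaders Cdc6 and Cdt1, the sliding clamp Pcna, and Rrm2, a subunit of ribonucleotide reductase. They were chosen by name, as every probe whose gene name in the array files equals one of the 10 symbols, and not by their values. This gave 12 probes for 10 of the 36085 gene names on the array, with 2 probes each for Mcm3 and Cdc6 and 1 for each of the other genes. All 10 genes passed the filter on dim probes, as did 24437 gene names in all.

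The samples were whole-lung total RNA from C57BL/6 mice, 4 with a lung-specific GGPPS1 knockout (KO) and 4 wild type (WT). All 8 mice had received lipopolysaccharide (LPS), the bacterial outer-membrane component that injures the lung, 12 h earlier, so the comparison is between genotypes under LPS and not of the response to LPS. GGPPS1 (gene symbol Ggps1) makes the geranylgeranyl group with which many small GTPases are anchored in membranes. The labels do not give the promoter that drives the deletion, the cells it reaches or the age of the mice. Whole lung also contains cells that a tissue-specific deletion may spare.

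In late mitosis and G1, the origin recognition complex, Cdc6 and Cdt1 load rings of the 6 MCM proteins onto DNA, which licenses each origin to fire once. In S phase the rings are activated as helicases, Pcna tethers the polymerases, and ribonucleotide reductase supplies deoxynucleotides. Most of these genes are transcribed from E2F-controlled promoters at the G1/S transition, ahead of the genes of mitosis, many of which carry a cell cycle homology region (CHR) bound by the DREAM and MuvB complexes. The adult lung has few dividing cells, and these transcripts are known there from regenerating epithelium, endothelium and resident immune cells.

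Signals are given as log2 processed signal minus that array's 75th percentile, and each difference is KO minus WT on the log2 scale. Between 58.1% and 61.6% of spots were well above background on KO arrays and between 61.6% and 65.3% on WT arrays. The arrays shared 1 slide, with KO samples in 1 row and WT samples in the other, so slide position and genotype cannot be told apart. Ggps1 itself read 1.32, 1.24, 1.22 and 1.24 in KO replicates 1 to 4, against 1.26, 1.34, 1.26 and 1.40 in WT replicates 1 to 4 (difference -0.06 ± 0.0679 SE; limma, adjusted p = 0.608). The labels do not say which part of the gene was removed, so this probe does not check the genotype labels. All 10 lung parenchyma markers looked for, among them Sftpc, Ager and Pecam1, were measured, which fits the labelled tissue. Cardiac muscle markers such as Myh6 and Nppa were also present, at a mean of 1.73, 3.55, 0.71 and 3.48 in KO replicates 1 to 4, against -0.93, 3.33, 0.48 and 0.57 in WT replicates 1 to 4.

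Promoter sequences are shown first because the licensing genes and the mitosis genes, which are compared later, differ in the elements their promoters hold. RefSeq promoters on GRCm38.p6, each from 250 bases before to 50 bases after the transcription start, were given for 9 of the 10 genes (not Mcm4). Each line is a stretch of 100 bases, 5′ to 3′ on the strand of the gene, with the matched element in capitals. The first 3 are licensing genes with an E2F element, the next is Rrm2 with its NF-Y box, and the last 2 are mitosis genes with a CHR element. They lie at chr1:128359731-128359830 (minus strand, Mcm6), chr8:75109312-75109411 (plus strand, Mcm5), chr11:98907967-98908066 (plus strand, Cdc6), chr12:24708156-24708255 (plus strand, Rrm2), chr4:117178823-117178922 (minus strand, Kif2c) and chr17:24251486-24251585 (minus strand, Ccnf).
Mcm6: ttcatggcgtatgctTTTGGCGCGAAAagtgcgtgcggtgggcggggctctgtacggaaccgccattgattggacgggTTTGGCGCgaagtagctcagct
Mcm5: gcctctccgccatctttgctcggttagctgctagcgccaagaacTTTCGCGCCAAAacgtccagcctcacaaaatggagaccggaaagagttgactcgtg
Cdc6: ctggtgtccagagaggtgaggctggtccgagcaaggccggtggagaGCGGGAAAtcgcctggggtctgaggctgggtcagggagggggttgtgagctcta
Rrm2: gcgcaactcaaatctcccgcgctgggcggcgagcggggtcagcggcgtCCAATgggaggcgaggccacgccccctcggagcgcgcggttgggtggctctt
Kif2c: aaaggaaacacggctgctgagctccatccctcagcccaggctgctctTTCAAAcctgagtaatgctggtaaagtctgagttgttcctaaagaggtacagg
Ccnf: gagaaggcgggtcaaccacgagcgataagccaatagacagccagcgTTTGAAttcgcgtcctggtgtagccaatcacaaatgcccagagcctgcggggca

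The E2F element was searched for as TTTCCCGC, TTTCGCGC, TTTGCCGC or TTTGGCGC, the CHR element as TTTGAA or TTCGAA, and the NF-Y box as CCAAT, on both strands and with overlapping matches counted. An E2F match lay in 6 of the 9 licensing promoters (66.7%; Mcm3, Mcm5, Mcm6, Mcm7, Cdc6 and Cdt1), against 4 of 54 mitosis genes (7.41%) and 2.61% of all 27025 genes with a promoter in the table. For the lists of origin recognition, origin firing, replication fork and G1/S regulators, described below, the share was 27.3% to 34.6%. For deoxynucleotide supply it was 0 of 8. Mcm6 held 3 matches, a pair that overlap on opposite strands and another downstream, and Mcm5 held 2 that overlap in the same way. A CHR match lay in 2 of the 9 licensing promoters (22.2%; Mcm2 and Mcm7), against 37 of 54 mitosis genes (68.5%) and 21.7% of all genes. An NF-Y box lay in 7 of the 9 (77.8%), against 40 of 54 mitosis genes (74.1%) and 41.1% of all genes. Rrm2 and Pcna held the NF-Y box alone of the 3 elements, so in this window Rrm2 had neither the E2F letters of the MCM genes nor the CHR letters of the mitosis genes. A match describes letters and not binding.

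**Figure D1:**
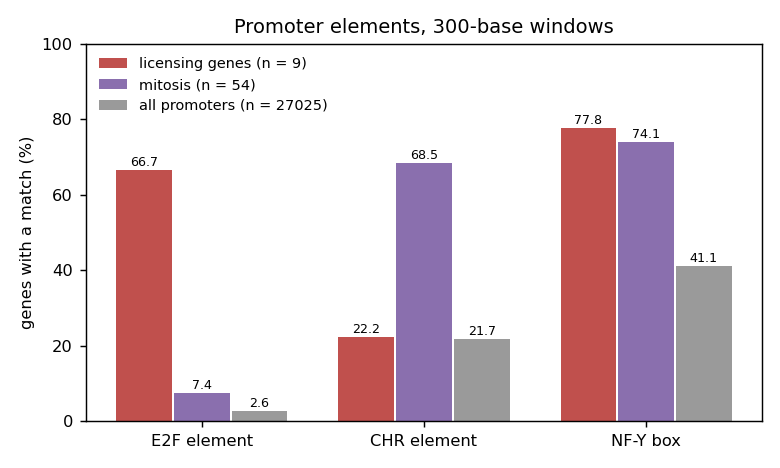
The share of genes, in percent, whose 300-base promoter window holds each element, for the 9 licensing genes, the 54 mitosis genes and all 27025 genes in the RefSeq table. E2F letters are in 66.7% of licensing promoters, while CHR letters are in 68.5% of mitosis promoters.

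None of the 10 licensing genes differed between KO and WT lungs by the test across all genes (limma, Benjamini-Hochberg adjusted p under 0.05, over 24437 genes). Across all genes 0.0614% were called, 0.0327% higher and 0.0286% lower, so a count of 0 among 10 is near the background, and at an adjusted p under 0.1 the count was again 0 of 10, against 7.53% of all genes. In the fit of every probe on its own 0 of the 12 probes were called, against 0.065% of all probes. At an unadjusted p under 0.05, 1 of the 10 passed, Rrm2, against 23.6% of all genes tested. Of the 10 genes, 7 read higher in KO lungs, with a median difference of 0.0446 (1.03-fold), against 45.6% of all genes higher and a median of -0.0276. With the arrays centred on their medians, 5 of the 10 read higher and their median was -0.0104, against a median of -0.083 over all genes. The median was 0.0117 without KO replicate 1, 0.0242 without KO replicate 3 and 0.0195 without WT replicate 1, and it was 0.0899 without KO replicate 2, 0.10 without KO replicate 4 and 0.0962 without WT replicate 3. In no probe of the 12 did the 4 KO values lie apart from the 4 WT values, as they did in either direction for 15.3% of all genes. Exact two-sided permutation tests over the 8 samples gave p between 0.0857 and 0.943 for the 12 probes, where 4 against 4 allows no p below 0.0286.

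**Figure D2:**
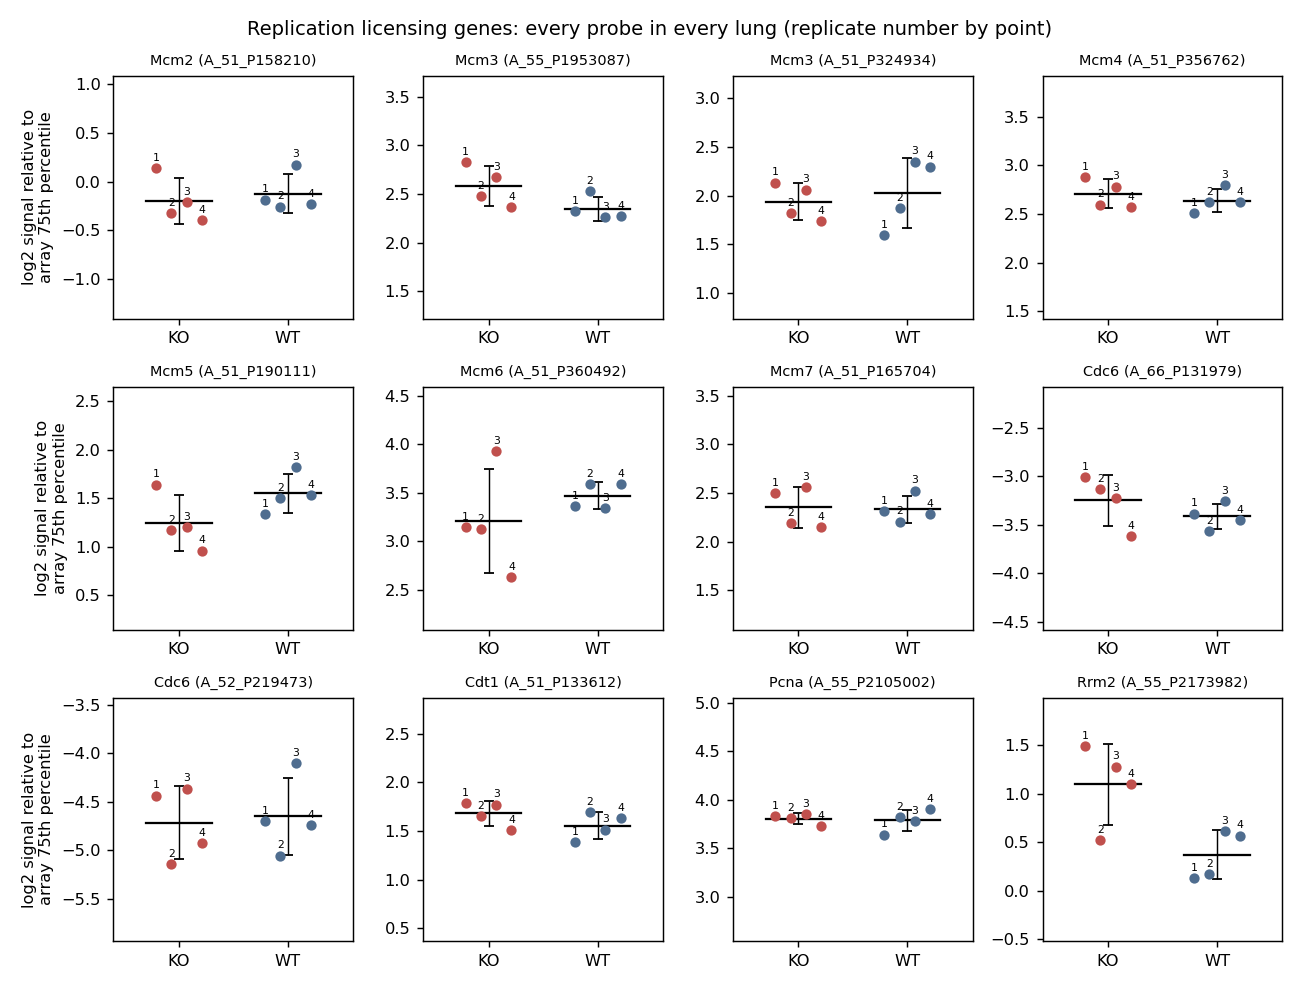
Log2 signal minus the array's 75th percentile for the 12 probes of the 10 licensing genes, one panel a probe, in the 4 KO and 4 WT lungs (points, numbered by replicate; line and bar, mean ± SD). Every panel spans the same range of log2 signal, and the KO and WT points overlap in all 12, least in Rrm2.

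The helicase subunits differed by 0.31 or less in either direction. Mcm2, which sits at the gate where the ring opens onto DNA, read 0.14, -0.32, -0.21 and -0.40 in KO replicates 1 to 4, against -0.19, -0.26, 0.17 and -0.23 in WT replicates 1 to 4. KO replicate 1 and WT replicate 3 stood above the others of their groups, and the other 6 lungs lay between -0.40 and -0.19. The difference was -0.07 ± 0.147 (SE; limma, adjusted p = 0.791), and it read 0.03 without WT replicate 3.

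Mcm4, which carries a target of the Cdc7 kinase that activates the helicase, read 2.88, 2.60, 2.78 and 2.57 in KO replicates 1 to 4, against 2.51, 2.62, 2.79 and 2.62 in WT replicates 1 to 4. Its difference was 0.07 ± 0.10 (SE; limma, adjusted p = 0.696), and it read 0.0133 without KO replicate 1, 0.0274 without WT replicate 1, 0.0455 without KO replicate 3, 0.107 without KO replicate 2, 0.116 without KO replicate 4 and 0.123 without WT replicate 3. Mcm7, part of the ring's catalytic core with Mcm4 and Mcm6, read 2.50, 2.19, 2.56 and 2.15 in KO replicates 1 to 4, against 2.31, 2.21, 2.53 and 2.28 in WT replicates 1 to 4. The KO values of Mcm7 fell into a high pair and a low pair on either side of 3 of the 4 WT values, and the means differed by 0.02 ± 0.124 (SE; limma, adjusted p = 0.943). That sign turned to -0.03 without KO replicate 1, -0.05 without KO replicate 3 and -0.02 without WT replicate 2.

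The subunits with the widest intervals were Mcm5 and Mcm6, both lower on average in KO lungs. Mcm5, the partner of Mcm2 at the gate, read 1.64, 1.17, 1.20 and 0.96 in KO replicates 1 to 4, against 1.34, 1.50, 1.82 and 1.53 in WT replicates 1 to 4. The 3 lowest KO values lay below every WT value, while KO replicate 1 lay above 3 of the 4 WT values (difference -0.31 ± 0.162 SE, 95% interval -0.68 to 0.07; limma, adjusted p = 0.286). Mcm6 read 3.14, 3.13, 3.93 and 2.63 in KO replicates 1 to 4, against 3.36, 3.59, 3.34 and 3.59 in WT replicates 1 to 4. Its 4 KO lungs covered 1.30 log2 units, from below to above all WT lungs, and its 4 WT lungs covered 0.249. The Mcm6 difference was -0.26 ± 0.247 (SE, 95% interval -0.83 to 0.31; limma, adjusted p = 0.537), and it ranged from -0.50 to -0.07 as each lung in turn was left out, being lowest without KO replicate 3 and nearest 0 without KO replicate 4.

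Mcm3, whose yeast counterpart contacts Cdc6 during loading, was measured by 2 probes that overlap. Probe A_55_P1953087 lies at chr1:20793136-20793195 and probe A_51_P324934 at chr1:20793119-20793178 (mm9, minus strand), and they share 43 bases with 1 mismatch. The windows below show 30 of those bases of each probe, 5′ to 3′, because it is the stretch in which the otherwise shared bases differ, and the capital marks the mismatch, A14G from the first probe to the second, counted from 1 at the 5′ end of the window.
A_55_P1953087: aagctttctttgcAattagactagtatgta
A_51_P324934: aagctttctttgcGattagactagtatgta

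The first Mcm3 probe, which is the brighter of the pair and stands for the gene, read 2.83, 2.48, 2.68 and 2.36 in KO replicates 1 to 4, against 2.32, 2.53, 2.26 and 2.27 in WT replicates 1 to 4. The second read 2.13, 1.82, 2.06 and 1.74 in KO replicates 1 to 4, against 1.59, 1.87, 2.35 and 2.30 in WT replicates 1 to 4. By the first probe Mcm3 differed by 0.24 ± 0.119 (SE, 95% interval -0.03 to 0.52; limma, adjusted p = 0.261), and by the second by -0.09 ± 0.186 (SE; limma, adjusted p = 0.798 over probes). Over all 8 lungs the probes therefore gave opposite signs, and neither passed. Within each array, the log2 ratio of the first probe to the second was 0.69, 0.66, 0.62 and 0.63 in KO replicates 1 to 4, against 0.73, 0.66, -0.09 and -0.02 in WT replicates 1 to 4. The KO lungs and WT replicates 1 and 2 (6 of 8) shared a ratio between 0.617 and 0.729, and WT replicates 3 and 4 lay near 0. The cause of that gap was not tested. Without those 2 lungs, a comparison chosen after their values were seen, Mcm3 differed by 0.16 by its first probe (limma, adjusted p = 0.643), and the median of the 10 genes was 0.115 with 8 of 10 higher and 0 called. The second probe was not fitted without them. Its values in WT replicates 1 and 2 were 1.59 and 1.87, against 1.74 to 2.13 in KO lungs.

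**Figure D3:**
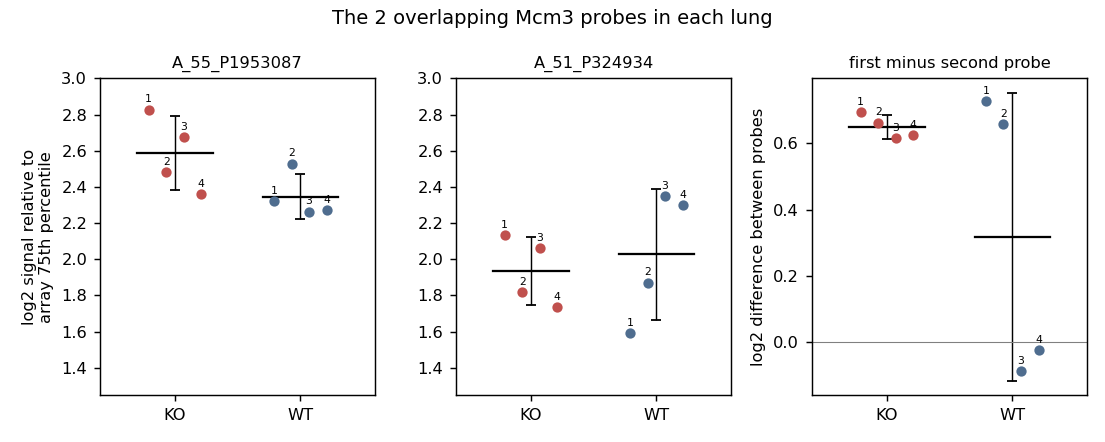
Log2 signal minus the array's 75th percentile for the 2 overlapping Mcm3 probes, and the log2 difference between them, in the 4 KO and 4 WT lungs (points, numbered by replicate; line and bar, mean ± SD). The ratio of the probes is 0.617 to 0.729 in 6 lungs and -0.0872 and -0.0234 in WT replicates 3 and 4.

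The loaders were measured at different strengths of signal. Cdc6, the ATPase that recruits the MCM ring to the origin recognition complex, had 2 probes, at chr11:98782986-98783045 and chr11:98785169-98785228 (mm9, plus strand). The brighter probe read -3.01, -3.13, -3.23 and -3.62 in KO replicates 1 to 4, against -3.38, -3.57, -3.25 and -3.45 in WT replicates 1 to 4 (difference 0.17 ± 0.140 SE, 95% interval -0.16 to 0.49; limma, adjusted p = 0.487). KO replicates 1 to 3 lay above all WT values and KO replicate 4 below them. Without KO replicate 1 the difference was 0.09 and without KO replicate 4 it was 0.29. The second Cdc6 probe was well above background on 2 of 4 KO and 4 of 4 WT arrays, and it differed by -0.07 ± 0.244 (SE; limma, adjusted p = 0.893 over probes).

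Cdt1, which escorts the MCM ring to Cdc6 and is destroyed once S phase begins, read 1.79, 1.65, 1.77 and 1.51 in KO replicates 1 to 4, against 1.38, 1.70, 1.51 and 1.63 in WT replicates 1 to 4. Its difference was 0.12 ± 0.10 (SE, 95% interval -0.11 to 0.36; limma, adjusted p = 0.472), and 3 of the 4 WT lungs lay within the KO range. Without WT replicate 1 the difference was 0.07. Pcna, the clamp, read 3.83, 3.81, 3.86 and 3.73 in KO replicates 1 to 4, against 3.64, 3.82, 3.78 and 3.90 in WT replicates 1 to 4. It was the steadiest of the 10 genes, with all 8 lungs within 0.260 log2 units and a difference of 0.02 ± 0.0781 (SE, 95% interval -0.16 to 0.20; limma, adjusted p = 0.905).

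Rrm2, the radical-bearing small subunit whose amount limits ribonucleotide reductase in S phase, differed most of the 10. It read 1.49, 0.52, 1.28 and 1.1 in KO replicates 1 to 4, against 0.13, 0.18, 0.61 and 0.57 in WT replicates 1 to 4. Of the KO lungs 3 lay above every WT lung, and KO replicate 2 lay just below WT replicates 3 and 4. The difference was 0.72 ± 0.219 (SE), 1.65-fold with a 95% interval of 1.16 to 2.34-fold (unadjusted limma p = 0.0108), and it did not pass across all genes (limma, adjusted p = 0.112; exact permutation p = 0.0857, two-sided). It was positive in every alternative run, from 0.46 with the mean of the thymocyte markers as a covariate (limma, adjusted p = 0.310) to 0.94 without WT replicates 3 and 4 (limma, adjusted p = 0.248). The lowest adjusted p was 0.0590, without KO replicate 2.

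The precision of 4 lungs a group sets what could be seen. The 95% interval included 0 for 9 of the 10 genes, all but Rrm2, and lay within 0.5 of 0 on either side for 6. For Mcm3, Mcm5, Mcm6 and Rrm2 the interval reached past 0.5 in the direction of the difference.

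**Figure D4:**
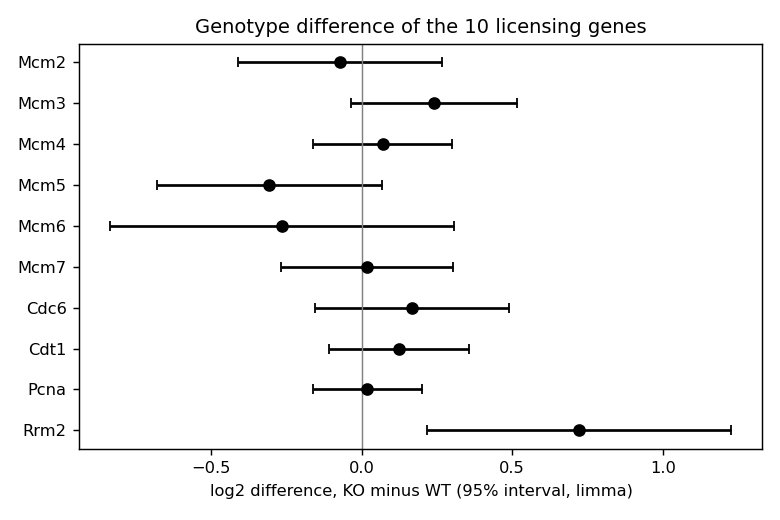
KO minus WT difference on the log2 scale for the 10 licensing genes (points) with the 95% interval of the limma fit (bars, 4 lungs a group). Rrm2 is the gene whose interval, 0.22 to 1.23, lies apart from 0.

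Within the KO group the 10 genes kept a largely common order of lungs. KO replicate 1 read higher than KO replicates 2 and 4 in 10 of 10 genes, KO replicate 3 read higher than KO replicate 4 in 10 of 10, and both KO replicates 1 and 3 read higher than both KO replicates 2 and 4 in 9 of 10, all but Cdc6. KO replicate 4 was the lowest KO lung for 9 genes and KO replicate 2 for Rrm2. The range over the 4 KO lungs exceeded the genotype difference in 10 of 10 genes. It was wider than the range over the WT lungs in 8 of 10, the others being Cdt1 and Pcna. A range of 4 values and a difference of means are unlike measures. The shares of all genes with this order of lungs, or with either feature of the ranges, were not counted. In WT lungs replicate 3 was highest for 6 genes and replicate 1 lowest for 5.

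As a mean deviation from the 8-lung mean of each gene, the licensing genes stood at 0.24, -0.08, 0.17 and -0.19 in KO replicates 1 to 4, against -0.14, -0.05, 0.07 and -0.02 in WT replicates 1 to 4. Other cell cycle lists, described below, split the KO lungs in the same way. Replication fork genes stood at 0.15, -0.06, 0.07 and -0.10 in KO replicates 1 to 4, and G1/S regulators at 0.13, -0.13, 0.09 and -0.09. KO replicates 1 and 3 also stood above KO replicates 2 and 4 for origin recognition and for helicase activation, but not for deoxynucleotide supply or mitosis. Cardiac markers ran the other way in the KO lungs: the means of the 14 markers given above were highest in KO replicates 2 and 4, where the licensing genes were lowest. WT replicate 1 did not follow this: it had the lowest cardiac mean of the 8 lungs, -0.93, and also the lowest licensing mean of the WT lungs. Among the other WT lungs, replicate 2 had the highest cardiac mean, 3.33, and the lowest licensing mean, -0.05. Lung parenchyma markers, 10 of 10 measured, had means of 6.19, 5.66, 6.26 and 5.71 in KO replicates 1 to 4, against 6.28, 5.89, 6.19 and 6.05 in WT replicates 1 to 4. Within the KO group they were high in replicates 1 and 3, as the licensing genes were, while WT replicate 1 had the highest parenchyma mean of the 8 lungs and the lowest licensing mean of the WT lungs. Over WT replicates 2, 4 and 3, in that order, the parenchyma mean and the licensing mean rose together. With the cardiac mean as a covariate, 8 of the 10 genes were higher in KO lungs, their median was 0.105, 0 were called and Rrm2 differed by 0.86 (limma, adjusted p = 0.0711). The part of tissue makeup in the order of the lungs was otherwise not tested, and in whole-lung RNA fewer cells of a type and less RNA per cell cannot be told apart.

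Markers of other cells that could carry these transcripts read in differing directions. Of 10 thymocyte markers tested 7 read lower in KO lungs (median -0.26), with mean levels of -0.93 to -0.52 in KO and -0.80 to -0.49 in WT lungs, and Rag1, Rag2, Ptcra and Themis did not pass the filter. Of 7 B cell and germinal centre markers 6 read lower (median -0.24; mean levels -0.93 to -0.23 in KO and -0.37 to 0.08 in WT lungs), with Blk and Pax5 among those not passing. Erythroid markers read lower in 5 of 6 (median -0.72; mean levels 0.27 to 0.72 in KO and 0.19 to 1.83 in WT lungs), with Hbb-b1, Epb42, Klf1 and Rhag among those not passing. Myeloid progenitor markers, all 10 tested, had a median of 0.06 (mean levels 1.21 to 1.65 in KO and 1.16 to 1.58 in WT lungs). Airway epithelium markers read higher in 11 of 11 (median 0.73; mean levels 1.92 to 2.85 in KO and 1.43 to 1.97 in WT lungs), and alveolar macrophage markers lower in 8 of 13 (median -0.25; mean levels 2.48 to 2.80 in KO and 2.55 to 3.17 in WT lungs). None of these markers passed at an adjusted p under 0.05 (limma). At a limma adjusted p under 0.1, 5 of the 11 airway epithelium markers were higher and 0 lower, against 3.07% and 4.45% of all genes. At that threshold 1 alveolar macrophage marker was higher and 3 lower, and 1 thymocyte marker was higher and 1 lower. The groups did not overlap in 6 of the 11 airway epithelium markers, all on the higher side, against 6.09% of all genes.

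Genes that act just before and after licensing were read next. The list of origin recognition and licensing control had 12 of 13 members tested (Orc1 did not pass the filter), 6 of them higher, with a median of 0.01. Of the 12, 0 had an unadjusted limma p under 0.05, against 23.6% of all genes. The median of the list lay between -0.0127 (without WT replicate 1) and 0.0390 (without WT replicate 4) as each lung was left out. Its members with the smallest p were Lrwd1, which binds the origin recognition complex, at -0.15, Gmnn, the inhibitor of Cdt1, at 0.23, and the origin recognition subunits Orc6 at 0.17 and Orc5 at -0.11. Their adjusted p values in limma are all above that of Rrm2.

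For activation of the helicase and firing of origins, 14 of 16 genes were tested (not Cdc7 and Clspn), 8 of them higher, with a median of 0.06. The median was 0.0024 without WT replicate 1, 0.0082 without WT replicate 2, 0.0268 without KO replicate 3, 0.0310 without KO replicate 1, 0.0918 without KO replicate 4 and 0.0958 without WT replicate 3, and it was -0.0192 with no filter. Of these, 2 were higher at an unadjusted p under 0.05 and 0 lower, against 10.1% higher and 13.5% lower of all genes. Mcm10, which helps the helicase start, read 0.20, 0.03, -0.15 and 0.16 in KO replicates 1 to 4, against -0.45, -0.26, -0.26 and -0.20 in WT replicates 1 to 4. Ticrr, which brings Cdc45 to origins, read -2.48, -3.02, -2.52 and -2.86 in KO replicates 1 to 4, against -3.74, -3.64, -3.12 and -3.06 in WT replicates 1 to 4. In both genes the groups did not overlap, as in 6.09% of all genes on the higher side and 9.26% on the lower, and the differences were 0.36 ± 0.101 and 0.67 ± 0.198 (SE; limma, adjusted p = 0.101 and 0.108). Donson, a helicase assembly factor, differed by -0.23, also without overlap, and Wdhd1, which links the helicase to polymerase alpha, by -0.17.

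At the replication fork 29 of 29 genes were tested, 16 of them higher, with a median of 0.08, and 3 were higher and 2 lower at an unadjusted p under 0.05, against 10.1% and 13.5% of all genes. The median was 0.0284 without KO replicate 1 and 0.0020 with the mean of each gene's probes. Pola2, the regulatory subunit of polymerase alpha, read -2.21, -2.20, -2.18 and -2.46 in KO replicates 1 to 4, against -1.96, -1.78, -1.73 and -1.74 in WT replicates 1 to 4, with no overlap (difference -0.46 ± 0.0941 SE; limma, adjusted p = 0.0633). With no filter on dim probes its difference was unchanged and its limma adjusted p was 0.0470, in a fit that called 2714 genes higher and 786 lower. The adjusted p of Pola2 was 0.0480 with array weights, and its difference was -0.27 with normexp background correction. Dna2, a nuclease of flap and end processing, differed by -0.46 ± 0.136 (SE; limma, adjusted p = 0.110). Rfc3, of the complex that loads Pcna, differed by 0.24 and Fen1, the flap nuclease that Pcna binds, by 0.29.

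Among the other genes of deoxynucleotide supply, 10 of 10 tested, 5 read higher, and the median was 0.01. The sign of that median rested on single lungs: it was -0.0376, -0.0468, -0.0147 and 0.0728 without KO replicates 1, 2, 3 and 4 in turn, -0.0042 without WT replicate 4, 0.0055 without WT replicate 1 and 0.0276 without WT replicate 3. The extremes went opposite ways: Dut, which removes dUTP, differed by 0.40 ± 0.105 (SE; limma, adjusted p = 0.0873), and Dck, the deoxycytidine salvage kinase, by -0.85 ± 0.207 (SE; limma, adjusted p = 0.0787), both without overlap. With no filter the limma adjusted p of Dck was 0.0470 at an unchanged difference, and with normexp its difference was -0.53. Tyms, the thymidylate synthase, differed by -0.24 (-0.11 without KO replicate 3) and Tk1, the thymidine kinase of S phase, by 0.19 (0.07 without KO replicate 1). Rrm2 thus lay above all 10 of these genes, the highest of which was Dut.

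Of 32 tested G1/S regulators of 33 (Ccne2 did not pass the filter), 15 read higher, with a median of -0.08, and 4 were higher and 4 lower at an unadjusted p under 0.05, against 10.1% and 13.5% of all genes. That median lay between -0.0576 and 0.0173 as each lung in turn was left out and was above 0 without WT replicate 3. E2f7 and E2f8, the repressors that shut off E2F targets late in S phase, differed by 0.79 ± 0.185 and 0.56 ± 0.158 (SE; limma, adjusted p = 0.0763 and 0.0997), both without overlap. E2f7 differed by 0.29 with the mean of its probes (limma, adjusted p = 0.207) and by 0.51 with normexp. Its limma adjusted p was 0.0470 with no filter, at an unchanged difference, and 0.0361 with the cardiac covariate. E2f1, an activator of the licensing genes, differed by -0.43 ± 0.158 (SE; limma, adjusted p = 0.159), and by -0.25 with the cardiac covariate. Rb1, the pocket protein that holds E2F activators back, read 1.76, 1.67, 1.93 and 1.37 in KO replicates 1 to 4, against 2.41, 2.14, 1.97 and 2.08 in WT replicates 1 to 4, and differed by -0.47 ± 0.142 (SE; limma, adjusted p = 0.114).

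The licensing genes were then set against mitosis. Of 63 mitosis genes 56 were tested, and 51 of those read higher in KO lungs with a median of 0.35 (1.28-fold), against 7 of 10 and 0.0446 for the licensing genes. Aurkb, Ttk, Cenpf, Cdc25c, Sgo2a, Knl1 and Ncapg did not pass the filter, and with no filter 57 of 63 read higher, with a median of 0.33. The mitosis genes were dimmer, with mean levels of -1.32 to -0.65 over the 8 lungs, against 1.30 to 1.72 for the licensing genes. With normexp background correction the median was 0.25 for the mitosis genes and 0.035 for the licensing genes. At an adjusted p under 0.05 in limma 0 mitosis genes were called, and 25 were higher and 2 lower at an unadjusted p under 0.05, against 10.1% and 13.5% of all genes. The groups did not overlap in 18 of 56 on the higher side and 1 on the lower, against 6.09% and 9.26% of all genes, and at an adjusted p under 0.1 there were 8 higher and 0 lower, against 3.07% higher and 4.45% lower of all genes. These counts describe lists whose genes share samples and regulators, and the difference between the lists was not tested.

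Nek2, a kinase that separates centrosomes, read 0.48, 0.91, 0.34 and 1.53 in KO replicates 1 to 4, against -0.96, -0.69, -0.68 and -0.93 in WT replicates 1 to 4, a difference of 1.63 ± 0.247 (SE), or 3.10-fold (limma, adjusted p = 0.0568). It passed the threshold in 6 of the alternatives run, with an adjusted p down to 0.0338. Kif2c, a kinesin that depolymerises microtubules at kinetochores, differed by 0.73 ± 0.147, Melk, a kinase of mitotic cells, by 0.56 ± 0.115, and Ccnf, cyclin F, by 0.62 ± 0.135 (SE; limma, adjusted p = 0.0625, 0.0633 and 0.0703). In each of the 4 the KO values lay above all WT values. Kif2c, Melk and Ccnf each had a limma adjusted p of 0.0470 with no filter, where their differences were unchanged and 2714 genes were called higher and 786 lower. With normexp Kif2c differed by 0.43 and Melk by 0.37.

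The mitosis genes ordered the lungs in part as the licensing genes did. Their mean deviation was 0.26, 0.20, 0.18 and 0.03 in KO replicates 1 to 4, against -0.30, -0.41, 0.05 and -0.01 in WT replicates 1 to 4. In both lists KO replicate 1 and WT replicate 3 were the highest of their groups, and KO replicate 4 was the lowest KO lung. KO replicate 2, which was low for the licensing genes, stood with KO replicates 1 and 3 for the mitosis genes. WT replicates 3 and 4 stood close to KO replicate 4 for the mitosis genes. The difference between genotypes was 0.333 for the mitosis list and 0.0718 for the licensing list. The mitosis median was 0.23 without WT replicate 2, 0.28 without WT replicate 1 and 0.50 without WT replicates 3 and 4. KO replicate 1 read higher than KO replicate 4 in 48 of 56 mitosis genes and in 10 of 10 licensing genes.

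**Figure D5:**
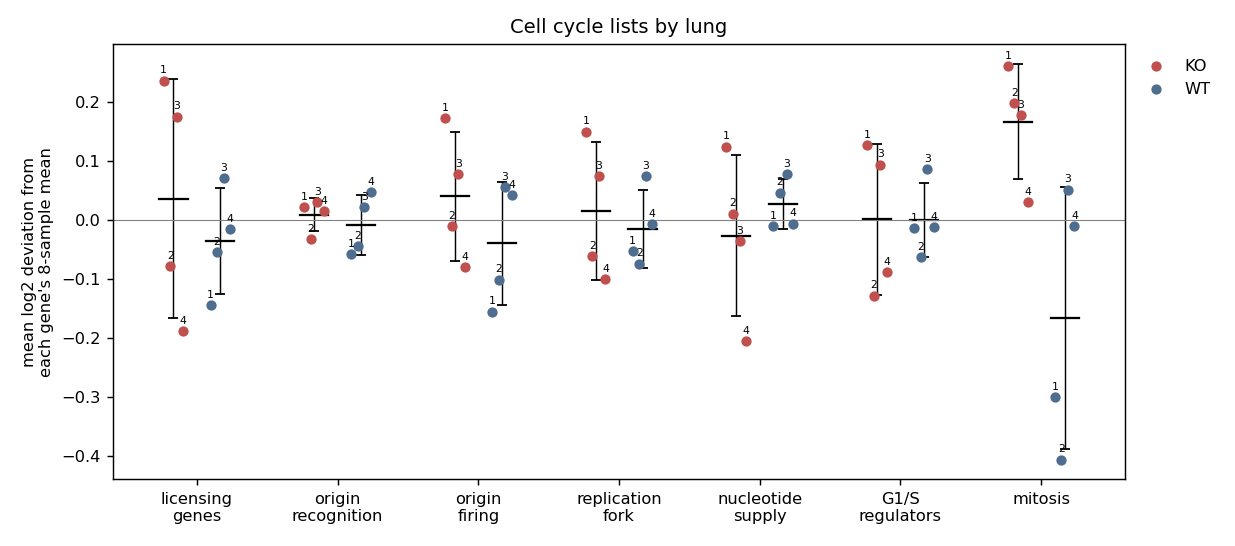
Mean log2 deviation from each gene's 8-lung mean for the licensing genes and 6 other cell cycle lists, in the 4 KO and 4 WT lungs (points, numbered by replicate; line and bar, mean ± SD). The licensing genes run from -0.19 to 0.24 within the KO group and overlap with WT, while the mitosis genes are lowest in WT replicates 1 and 2, at -0.30 and -0.41.

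The genes that followed the licensing genes most closely over the 8 lungs, by Pearson r with the mean standardised level of the 10, were Kif15 (0.979), Zfp763 (0.973), Mis18a (0.959), Mtrf1l (0.958), Ints6l (0.953) and Dmxl1 (0.953). With the group means removed they were H2-T9 (0.985), Rnf31 (0.982), Selenow (0.982), Kif15 (0.978), H2-T10 (0.977) and Mis18a (0.975). Kif15, a spindle kinesin, and Mis18a, which prepares centromeres for new CENP-A, were in both sets. Among the members, r ranged from 0.457 for Mcm6 to 0.946 for Mcm4, each being part of the mean it is set against. These are descriptions of 8 arrays that share a slide and a scaling, picked as the highest of 24437 genes.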

How the data were processed

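Whole-lung total RNA of 4 KO and 4 WT mice, 12 h after LPS, was labelled with Cy3 and hybridised to single-colour Agilent arrays, per the labels' protocols. Per the file headers, the authors read the scans with Agilent Feature Extraction 10.7.1.1 and deposited the intensity of each spot as a background-subtracted processed signal, with probe coordinates on mm9. They also deposited a table of log2 values whose columns share a median of 5.63 and correlate with log2 processed signal at r of 0.999 or more, used as an alternative; its normalization is not stated.

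Control and outlier spots (154 to 245 an array) were left out, replicate spots were averaged, and the 75th percentile over 55660 probes was subtracted from each array's log2 processed signal. No spot was saturated. A gene was tested if a probe was well above background on at least 3 of the 4 arrays of a group, and its brightest probe was used. Names were updated through the RefSeq table of GRCm38.p6 (26574 probes by accession, 2601 by symbol, 492 by synonym, and 25993 kept the file's name). Whether a probe lies in an exon or a UTR was not analysed here.

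Genotypes were tested two-sided by lmFit and eBayes of limma 3.58.1 (R 4.3.3), with p-values adjusted by Benjamini-Hochberg over 24437 genes and a threshold of 0.05. The code was tested on simulated data. Exact permutation tests listed every split of the 8 samples into 4 and 4 in Python 3.11.15, and figures used matplotlib 3.10.9. Replicates are separate samples in the labels, counted as 4 mice a group in the design text; the number of arrays limits the precision.

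The text names all 10 members with all probes, up to 4 genes of each other cell cycle list with the smallest p, Ggps1, and up to 6 genes most like the members' mean. The members, the cell cycle lists, the marker lists (thymocyte, B cell and germinal centre, erythroid, myeloid progenitor, cardiac muscle, alveolar macrophage, airway epithelium, lung parenchyma) and the tests were chosen with earlier results of these data known. Alternatives covered background correction, normalization, the filter, the probe rule, the variance model, array weights, marker means as covariates, the replicate block and each sample left out.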

Additional observations from a re-analysis of the deposited data

Results flagged for a closer look

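A gap of 1 lung from the rest of its group was looked for in 90 groups of 4 lungs, and 4 groups (4.44%) had one above Dixon's 95% critical value, where chance gives about 1 in 20. Of the licensing genes, Mcm2 in WT replicate 3 read 0.17, against -0.26 to -0.19 in the other WT lungs. Pola2 in KO replicate 4 read -2.46, against -2.21 to -2.18 in the other KO lungs, and E2f7 in KO replicate 2 read -2.89, against -2.32 to -2.25. Ccnf in WT replicate 2 read -1.31, against -0.89 to -0.85 in the other WT lungs.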

How the results depend on the processing

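Of 220 values of the 10 licensing genes under 22 alternatives, 58 equal the main value by construction (5 alternatives that change the genes tested or the error model but not the difference, and the mean of probes for the 8 genes with 1 probe). Of the other 162, 150 kept the sign of the main value and 12 did not. None passed an adjusted p of 0.05 (limma, lowest 0.0590, for Rrm2). Those that turned were Mcm2 (0.0128 with the cardiac covariate, 0.0240 without WT replicates 3 and 4, and -0.185 to 0.0266 as each lung was left out, above 0 without WT replicate 3), Mcm7 (-0.0367 with median centring, -0.0265 with array weights, -0.0353 with the thymocyte covariate, -0.0529 to 0.0853 as each lung was left out) and Pcna (-0.0361 with median centring, -0.00758 with the thymocyte covariate, -0.0295 to 0.0571 as each lung was left out). Ggps1 read 0.0049 with the mean of its probes. The count of genes higher and lower, 8 and 7, moved most: 219 and 279 with normexp, 13 and 23 with median centring, 2714 and 786 with no filter, 59 and 68 with a filter on all 8 arrays, 3 and 3 with the mean of a gene's probes, 160 and 258 with an intensity trend, 160 and 190 with array weights, 664 and 996 with the cardiac covariate, 1 and 2 with the thymocyte covariate, and 751 and 1088 at an adjusted p under 0.1. With each probe on its own, 11 probes were higher and 11 lower, of 33866 probes. Leaving out a lung gave 1 to 14 higher and 0 to 15 lower (0 lower without KO replicates 1 or 2 or WT replicates 1 or 2), and leaving out WT replicates 3 and 4, chosen after seeing the data, gave 1 and 4. Called mitosis genes, 0 in the main fit, numbered 3 with normexp, 5 with no filter, 1 each with the filter on all 8 arrays, the intensity trend and array weights, and 6 with the cardiac covariate. With the replicate block, 11 genes were higher and 33 lower. Same-numbered KO and WT arrays lay in the same slide column, and the labels do not say whether the numbers pair the samples. Same-numbered lungs correlated at 0.13, 0.47, 0.0075 and -0.29 in their deviations, and not every lung correlated best with its own number. The causes of these shifts were not tested. Dim genes such as Cdc6, whose second probe was above background on 6 arrays, are limited by signal over background.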
